A study of Mus musculus with 2 samples.

Results

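The 33 genes described here encode proteins that copy DNA, and they were followed in nuclei of the regrowing mouse liver. They were named by symbol, and all 33 were found among the 27998 genes of the deposited tables. The list holds the helicase and its loaders, the polymerases with their sliding clamp, enzymes that join the lagging strand, enzymes that supply deoxynucleotides, chromatin factors and proteins that guard or repair the replication fork.

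Nuclear RNA was sequenced by a droplet method that reads the 3' end of transcripts and counts unique molecular identifiers (UMIs), in livers of 12-week-old C57BL/6 mice taken 48 h after PHx (partial hepatectomy, in which a portion of the liver is cut away and the rest regrows). One library came from Sox9HKO, called HKO in the sample titles, and the other from its control Sox9f/f, called WT, where f/f stands for a floxed gene that Cre can delete. Both had PHx, no unoperated liver was analysed here, and the labels give neither the driver of the deletion nor the meaning of HKO. With 1 library per group, no difference has a replicate check, no test was made, and the libraries, the animals and the genotypes cannot be told apart.

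DNA replication begins when origins are loaded with a ring-shaped helicase built from MCM proteins, which is switched on only after the cell enters S phase. Polymerases then extend both new strands, held on DNA by a clamp that a separate loader opens and closes. Hepatocytes of an adult liver seldom divide, but after PHx they enter the cell cycle in near synchrony, ahead of the other liver cells, and genes of this kind are switched on through E2F transcription factors as cells pass from G1 into S phase.

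The HKO library held 14912 barcodes with a median of 3286 UMIs and the WT library 14701 barcodes with a median of 3430, and 70 barcode sequences occurred in both. In hepatocyte-like nuclei mitochondrial genes gave a median of 0.0738% of UMIs in HKO, against 0.271% in WT, and the part of this gap in the results was not tested. Nuclei were clustered without the replication and mitosis genes and named by marker genes. A hepatocyte-like cluster had at least 3 hepatocyte markers detected. No other class reached a median log2 ratio of 1 for its markers, cluster over the rest of its library. Among the 10 highest genes of the cluster by this ratio, no other class had more markers than hepatocytes, whose zone genes also counted. The last condition alone took out WT cluster 3.5, led by haemoglobin genes, with an erythroid median of 0.975. Hepatocyte markers themselves had median log2 ratios from -0.26 (WT cluster 9) to 0.21 (HKO cluster 0.3) in the hepatocyte-like clusters. The name thus rests largely on the lack of other markers. In the clusters led by mitosis genes, 13 in HKO and 9 in WT, these medians were -0.16 and -0.26. No hepatocyte marker was among their 10 highest genes. Hepatocyte-like nuclei numbered 6871 in HKO and 9627 in WT, endothelial-like 2351 and 1136, macrophage-like 1771 and 1059, stellate-like 1160 and 641, and T/NK-like 290 and 109. Almost every cluster belonged to 1 library, so a class was made of different clusters in HKO (hepatocyte-like clusters 0.1, 0.3, 10 and 13) and WT (clusters 1, 5 and 9), and cluster and library cannot be told apart. Hepatocyte RNA was found in all classes, and the summed hepatocyte markers reached 80.7% to 94.3% of the level of hepatocyte-like nuclei in the other 4 classes of HKO, and 88.0% to 104.8% in those of WT. The origin of this RNA and its part in the values of the replication genes were not tested. The level that these shares refer to also differed. In hepatocyte-like nuclei the hepatocyte markers summed to 14570 CPM in HKO, against 27980 CPM in WT, and the part of this gap in the results was not tested. Nuclei led by haemoglobin genes, 1767 in HKO and 1801 in WT, were left out of every class, and their hepatocyte markers stood at 100.2% (HKO) and 201.1% (WT) of those in hepatocyte-like nuclei, with mitochondrial genes also leading the WT group. Sox9, the targeted gene, was at 5.80 CPM (UMIs per 1000000 UMIs of the class; 193 UMIs) in HKO and 11.5 CPM (501 UMIs) in WT hepatocyte-like nuclei, against 5.92 and 8.33 CPM in endothelial-like nuclei, and the labels do not say whether the counted 3' end was deleted.

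Promoters of 28 of the 33 genes were found in RefSeq (GRCm38.p6), as windows from 250 bases before to 50 bases after a start. The letters TTTCGCGC, TTTGGCGC or TTTCCCGC, common forms of an E2F site, were searched on both strands and occurred in windows of 11 of the 28 genes (39.3%), against 2.12% of 27025 genes. CCAAT, the letters bound by NF-Y, occurred in 21 of the 28 (75.0%), against 41.1% of all genes. The 5 windows shown are those of Mcm6 and Mcm5 (helicase) and Dtl (a licensing control), whose levels were lower in HKO, and of Brca1 and Helb (repair at forks), which were among those that differed least between the libraries. They are written on the strand of the gene, and capitals mark the searched letters in either orientation; the 12-base run of capitals in Mcm5 and in Mcm6 joins overlapping E2F matches of opposite strands.
Mcm6, chr1:128359656-128359955, minus strand: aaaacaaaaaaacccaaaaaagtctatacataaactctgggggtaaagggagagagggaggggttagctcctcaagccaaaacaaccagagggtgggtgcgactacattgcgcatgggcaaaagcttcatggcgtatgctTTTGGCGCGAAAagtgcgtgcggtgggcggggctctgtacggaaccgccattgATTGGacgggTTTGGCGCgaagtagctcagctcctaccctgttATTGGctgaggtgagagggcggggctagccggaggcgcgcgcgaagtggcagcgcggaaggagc
Mcm5, chr8:75109259-75109558, plus strand: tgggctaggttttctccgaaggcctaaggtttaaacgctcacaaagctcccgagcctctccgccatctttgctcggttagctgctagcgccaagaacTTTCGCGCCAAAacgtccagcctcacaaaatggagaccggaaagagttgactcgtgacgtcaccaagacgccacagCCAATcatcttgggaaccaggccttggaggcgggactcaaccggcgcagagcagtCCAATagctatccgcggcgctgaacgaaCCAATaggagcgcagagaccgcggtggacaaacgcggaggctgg
Dtl, chr1:191575495-191575794, minus strand: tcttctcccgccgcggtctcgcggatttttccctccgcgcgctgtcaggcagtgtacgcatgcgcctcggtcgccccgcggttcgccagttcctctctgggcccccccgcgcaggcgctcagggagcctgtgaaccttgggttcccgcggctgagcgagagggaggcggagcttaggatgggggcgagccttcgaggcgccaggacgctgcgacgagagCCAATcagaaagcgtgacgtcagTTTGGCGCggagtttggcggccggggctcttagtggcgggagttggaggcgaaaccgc
Brca1, chr11:101551906-101552205, minus strand: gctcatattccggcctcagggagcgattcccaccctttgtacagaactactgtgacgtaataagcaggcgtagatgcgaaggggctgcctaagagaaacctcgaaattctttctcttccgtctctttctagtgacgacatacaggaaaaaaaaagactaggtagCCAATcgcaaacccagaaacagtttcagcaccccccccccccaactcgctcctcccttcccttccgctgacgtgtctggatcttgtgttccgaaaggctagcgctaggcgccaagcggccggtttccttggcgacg
Helb, chr10:120112916-120113215, minus strand: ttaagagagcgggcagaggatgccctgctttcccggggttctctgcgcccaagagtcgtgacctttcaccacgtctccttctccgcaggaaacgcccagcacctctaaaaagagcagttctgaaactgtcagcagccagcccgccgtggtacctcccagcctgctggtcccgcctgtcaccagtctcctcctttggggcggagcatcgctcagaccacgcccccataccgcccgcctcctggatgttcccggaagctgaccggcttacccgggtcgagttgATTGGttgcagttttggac
The windows of Mcm6, Mcm5 and Dtl hold an E2F form and those of Brca1 and Helb hold CCAAT alone. Not all other genes followed this split. Brip1, the lowest of the list by fold, with a log2 ratio of -1.28, has no E2F form in its window, and Clspn, at -0.44, has one. A match is a string of letters, not a bound site. Over the 11 genes with an E2F form the hepatocyte-like log2 ratio of HKO over WT had a median of -1.01 (from -1.26 to -0.44), and over the 17 without one it had a median of -0.55 (from -1.28 to -0.08) and the ranges overlapped.

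In hepatocyte-like nuclei every one of the 33 genes had a lower value in HKO than in WT. Their UMIs summed to 796 CPM (95% interval 787 to 806, 26495 UMIs) in HKO, against 1248 CPM (1238 to 1259, 54436 UMIs) in WT, so that HKO stood at 0.638 times the WT level (0.628 to 0.647). Folds are HKO over WT unless said otherwise. All intervals are exact, at 95%, and cover counting error only. For 31 of the 33 genes the interval of the fold lay below 1, for 2 it held 1 and for none it lay above, whereas among 11035 genes with at least as many UMIs as the lowest of the 33 it lay below 1 for 27.1% and above 1 for 49.1%. By size, 23 of the 33 reached a mean of 10 CPM over both libraries, of which 7 lay at a log2 ratio of -1 or below, against 4.52% of 8402 genes at that level, and none was at 1 or above, against 2.93%. The 10 genes under that mean are Mcm2, Cdc6, Cdc45, Gins2, Pcna, Rfc4, Fen1, Rrm2, Chaf1b and Exo1. The median ratio of the 23 was -0.80, beside 0.16 over all 8402 genes. Scaling by median-of-ratios factors shifted every hepatocyte-like ratio by -0.16 and TMM factors by -0.14, so the genes stood further below WT, with 9 of 22 at -1 or below under each. With every nucleus thinned to 2000 UMIs it was 3 of 24, and with a mean of 25 CPM required it was 3 of 11. The share of all genes at -1 or below was not computed under these settings, so the 4.52% does not serve beside these counts.

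**Figure D1:**
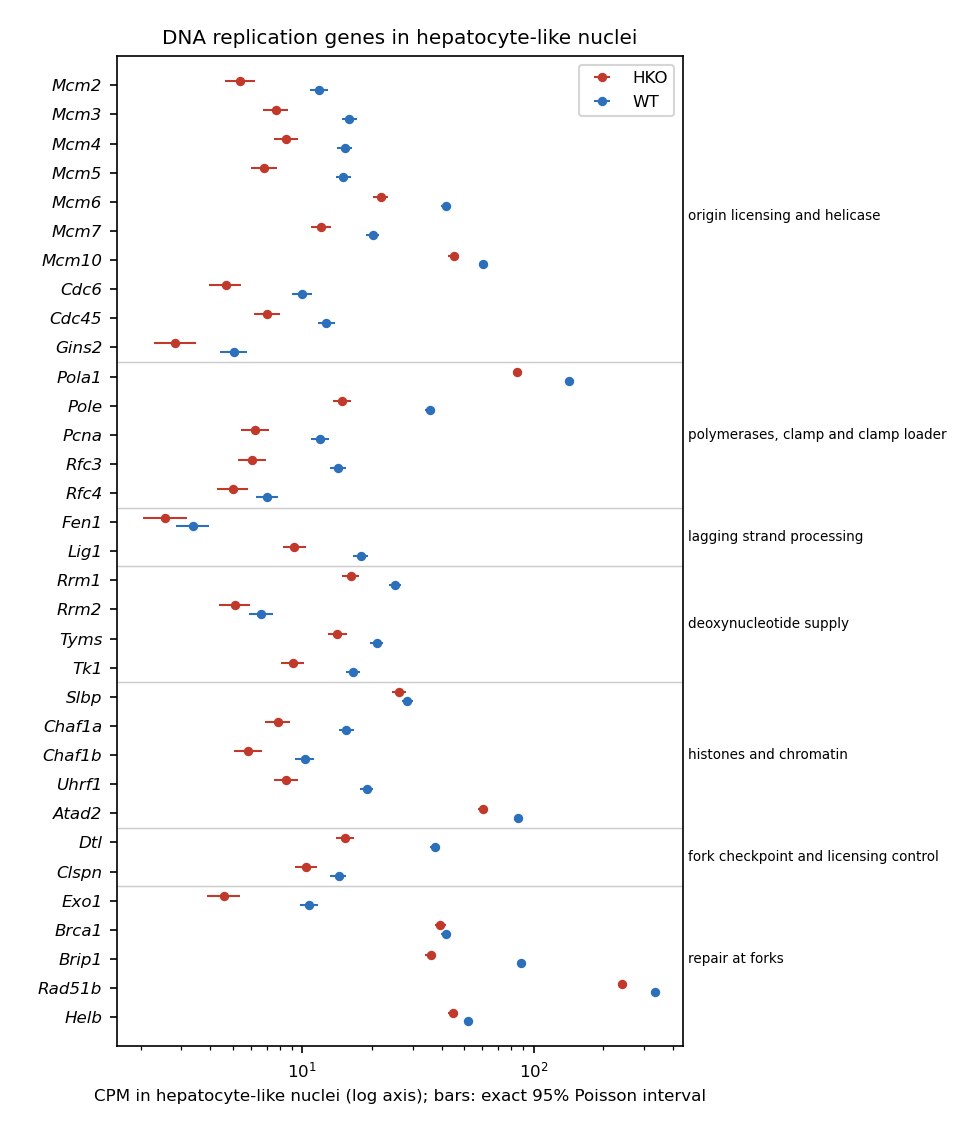
Level of each of the 33 genes in hepatocyte-like nuclei, in CPM on a log axis, with HKO (red) above WT (blue) in each row and bars for the exact 95% Poisson interval; genes are grouped by role. Every red point lies left of its blue point, with the closest pairs at Brca1 (39.4 and 41.8 CPM) and Slbp (26.2 and 28.5 CPM).

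The helicase genes were lower in HKO throughout, summing to 122 CPM in HKO, against 208 CPM in WT, a fold of 0.586 (0.564 to 0.608) over 10 genes. The 6 subunits of the MCM ring, Mcm2 to Mcm7, had folds between 0.455 and 0.598. Mcm5 (ENSMUSG00000005410, chromosome 8, 75109569 to 75128439, plus strand, GRCm38) was at 6.85 CPM in HKO (228 UMIs), against 15.05 CPM in WT (656 UMIs), a fold of 0.455 (0.390 to 0.530). Mcm2 was at 5.38 CPM in HKO, against 11.8 CPM in WT, a fold of 0.456. Mcm3 was at 7.69 CPM in HKO, against 16.0 CPM in WT, a fold of 0.481. The ring subunits Mcm4 and Mcm7 lay somewhat nearer to WT, although still well apart from it. Mcm4 was at 8.53 CPM in HKO, against 15.2 CPM in WT, and Mcm7 at 12.0 CPM in HKO, against 20.1 CPM in WT. Mcm6 (ENSMUSG00000026355, chromosome 1, 128331590 to 128359664, minus strand), whose promoter is printed above, was at 21.8 CPM in HKO, against 41.6 CPM in WT, a fold of 0.525 (0.481 to 0.572).

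Factors that load or switch on the ring behaved alike with 1 exception. Cdc6, a loader that licenses origins in G1, was at 4.66 CPM in HKO, against 9.98 CPM in WT, a fold of 0.467 (0.386 to 0.562). Cdc45, a part of the active helicase, was at 7.06 CPM in HKO, against 12.7 CPM in WT, and Gins2, a subunit of the GINS complex of the same helicase, at 2.82 CPM in HKO, against 5.05 CPM in WT. Mcm10, which is not a ring subunit but acts when the helicase is switched on, was the exception, at 45.0 CPM in HKO, against 60.6 CPM in WT, a fold of 0.744 (0.698 to 0.793). Its interval does not overlap that of any of the 6 ring subunits.

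Polymerase, clamp and clamp loader genes summed to 117 CPM in HKO, against 211 CPM in WT, and individual subunits differed in how far they stood below WT. Pole, the catalytic subunit of the leading strand polymerase, was at 14.8 CPM in HKO, against 35.5 CPM in WT, a fold of 0.418 (0.377 to 0.463). Rfc3, a subunit of the clamp loader, was at 6.07 CPM in HKO, against 14.3 CPM in WT, a fold of 0.424 (0.360 to 0.498). Rfc4, another subunit of the same loader, was at 5.02 CPM in HKO, against 7.04 CPM in WT, a fold of 0.713 (0.587 to 0.863), so these loader subunits differed from each other beyond counting error. Pcna, the clamp itself, was at 6.25 CPM in HKO, against 11.9 CPM in WT, and Pola1, which starts each new strand together with primase, at 84.96 CPM in HKO, against 143 CPM in WT. On the lagging strand, Lig1, the ligase that seals its fragments, was at 9.23 CPM in HKO, against 17.9 CPM in WT, a fold of 0.516 (0.451 to 0.590). Fen1, the nuclease that trims them, had 85 UMIs in HKO and 147 in WT, and its fold of 0.758 (0.573 to 0.996) came close to holding 1.

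Deoxynucleotide supply genes were also lower, summing to 44.6 CPM in HKO, against 69.4 CPM in WT, a fold of 0.642 (0.603 to 0.684). Rrm1, the large subunit of ribonucleotide reductase, was at 16.2 CPM in HKO, against 25.2 CPM in WT, and Rrm2, its small subunit, at 5.11 CPM in HKO, against 6.65 CPM in WT. Tyms, which makes thymidylate, was at 14.2 CPM in HKO, against 21.0 CPM in WT. Tk1, the salvage kinase of thymidine, had the lowest fold of the 4, at 9.11 CPM in HKO, against 16.6 CPM in WT, a fold of 0.549 (0.479 to 0.629).

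Chromatin genes ranged widely. Uhrf1, which reads hemimethylated DNA behind the fork, was at 8.53 CPM in HKO, against 18.9 CPM in WT, a fold of 0.451 (0.392 to 0.516). Chaf1a and Chaf1b, subunits of the histone chaperone CAF-1, were at 7.81 and 5.83 CPM in HKO, against 15.5 and 10.3 CPM in WT. Atad2, a bromodomain protein bound to new histones, was at 60.3 CPM in HKO, against 85.5 CPM in WT, a fold of 0.706 (0.668 to 0.745). Slbp, which binds the stem loop of histone mRNA, was at 26.2 CPM in HKO, against 28.5 CPM in WT, and its fold of 0.921 had an interval that just held 1. It is 1 of the 2 genes whose libraries could not be told apart by counting error.

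The widest gap and the narrowest gap both lay among fork control and repair genes. Brip1 (ENSMUSG00000034329, chromosome 11, 86058138 to 86201193, minus strand), a helicase that partners Brca1, was at 35.9 CPM in HKO (1193 UMIs), against 88.1 CPM in WT (3840 UMIs), a fold of 0.407 (0.381 to 0.435). Dtl, which directs the destruction of the licensing factor Cdt1 in S phase, was at 15.3 CPM in HKO, against 37.4 CPM in WT, a fold of 0.408 (0.369 to 0.451). Brca1 itself (ENSMUSG00000017146, chromosome 11, 101488764 to 101551955, minus strand) was at 39.4 CPM in HKO (1311 UMIs), against 41.8 CPM in WT (1821 UMIs), a fold of 0.943 (0.878 to 1.01). So Brip1 and its partner Brca1 stood at opposite ends of the list. Exo1, an exonuclease of mismatch and break repair, was at 4.57 CPM in HKO, against 10.7 CPM in WT, and Clspn, a mediator of the fork checkpoint, at 10.4 CPM in HKO, against 14.3 CPM in WT. Helb, a helicase that limits end resection, was at 44.8 CPM in HKO, against 52.2 CPM in WT, a fold of 0.859 (0.804 to 0.918). Rad51b (ENSMUSG00000059060, chromosome 12, 79297282 to 79814690, plus strand), a gene of 517409 bases that acts in recombination repair, was at 242 CPM in HKO, against 335 CPM in WT, a fold of 0.721 (0.702 to 0.741). Rad51b alone gave 8045 of the 26495 HKO UMIs and 14621 of the 54436 WT UMIs of the list, and without Rad51b and Helb the sum was 510 CPM in HKO, against 861 CPM in WT, a fold of 0.592.

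A second list of 70 replication genes, which holds none of the 33, was set beside them. It holds 43 genes above the mean of 10 CPM, with a median log2 ratio of -0.39. Of these, 1 lay at -1 or below and none at 1 or above, against 4.52% and 2.93% of 8402 genes. Lowest were Mms22l, a fork repair factor, at 32.4 CPM in HKO, against 68.5 CPM in WT, Hells, a chromatin remodeller, at 22.4 CPM in HKO, against 44.0 CPM in WT, Timeless, a fork protection protein, at 13.8 CPM in HKO, against 26.9 CPM in WT, and Gins1, a GINS subunit, at 13.3 CPM in HKO, against 25.5 CPM in WT. At the other end, Top1, the topoisomerase that also serves transcription, was at 262 CPM in HKO, against 169 CPM in WT, Pole4 at 36.5 CPM in HKO, against 25.5 CPM in WT, and the origin recognition subunits Orc3 and Orc4 at 90.2 and 56.6 CPM in HKO, against 67.3 and 49.7 CPM in WT. Of 19 mitosis genes at that mean 9 lay at -1 or below, against the same 4.52% of all genes, with a median of -0.95. Top2a, which untangles sister chromosomes, was at 36.5 CPM in HKO, against 88.8 CPM in WT, and Mki67, a coat protein of mitotic chromosomes, at 14.8 CPM in HKO, against 32.6 CPM in WT. The lists were chosen with results of these data known, so their counts are not independent evidence.

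Most hepatocyte-like nuclei held at least 1 UMI of the 33 genes after thinning to 2000 UMIs, 69.7% of them in HKO and 82.4% in WT. At that depth 20.3% (19.3 to 21.3) of 6511 HKO nuclei and 36.9% (35.9 to 37.8) of 9531 WT nuclei held at least 3 such UMIs, and without thinning 51.1% of HKO nuclei (median depth 4308 UMIs) and 65.7% of WT nuclei (3802 UMIs) did. The 651 HKO nuclei with the most such UMIs after thinning held 39.3% of them, and the 953 WT nuclei with the most held 32.6%. Each group was 10% of the thinned hepatocyte-like nuclei of its library. The most replication genes seen in a single thinned nucleus were 14 in HKO and 11 in WT. Clusters led by mitosis genes carried the highest levels, 2680 CPM (477 nuclei, cluster 13) in HKO and 2612 CPM (964 nuclei, cluster 9) in WT, whereas the other hepatocyte-like clusters lay between 635 and 691 CPM in HKO and between 858 and 1124 CPM in WT. The intervals of both libraries overlapped in these clusters and in no others.

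Nuclei were then split by transcripts that are not on the list. Of the thinned hepatocyte-like nuclei, 441 in HKO (6.77%) and 1359 in WT (14.3%) held at least 3 UMIs of 38 mitosis genes. In those nuclei the 33 genes summed to 2633 CPM in HKO, against 2353 CPM in WT, a fold of 1.12 (1.07 to 1.17). In nuclei with no mitosis UMI, 4320 in HKO and 4322 in WT, they summed to 617 CPM in HKO, against 900 CPM in WT, a fold of 0.686 (0.662 to 0.710). In CPM, the summed level was thus higher in HKO among nuclei with at least 3 mitosis UMIs and lower in HKO among those with none. Nuclei with mitosis UMIs but fewer than 3 are in neither group, and their level is not given here. Below, nuclei with mitosis transcripts are those with at least 3 such UMIs, and nuclei without have none. The log2 ratio of 0.16 among nuclei with at least 3 mitosis UMIs is about the size of the scaling shift over the hepatocyte-like class. That shift was -0.16 with median-of-ratios and -0.14 with TMM factors, and neither scaling was applied to this split. Where the cycling clusters stand in for the mitosis transcripts, the log2 ratio was 0.04 in place of 0.16. This split by mitosis transcripts was chosen after the data were seen.

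Gene by gene, in nuclei without a mitosis UMI the interval lay below 1 for 24 of the 33 genes and above 1 for none, against 19.2% and 37.4% of 11447 genes. Among nuclei with at least 3 mitosis UMIs it lay below 1 for 2 genes and above 1 for 4, against 10.7% and 21.2% of 9676 genes, so both counts were under the share over all genes. The 4 higher ones were Slbp, at 82.8 CPM in HKO, against 43.4 CPM in WT, a fold of 1.91 (1.40 to 2.57), Brca1, at 176 CPM in HKO, against 109 CPM in WT, a fold of 1.62 (1.32 to 1.97), Tyms, with a fold of 1.53 (1.09 to 2.12), and Pola1, with a fold of 1.17 (1.02 to 1.35). The 2 lower ones were Tk1, at 18.1 CPM in HKO, against 35.0 CPM in WT, a fold of 0.519 (0.285 to 0.887), and Rfc3, at 14.7 CPM in HKO, against 28.0 CPM in WT, a fold of 0.527 (0.268 to 0.956). Brip1 and Dtl, the lowest of the list over all hepatocyte-like nuclei, had 146 and 71.4 CPM in HKO nuclei with mitosis transcripts, against 162 and 65.9 CPM in WT ones, and both intervals held 1.

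**Figure D2:**
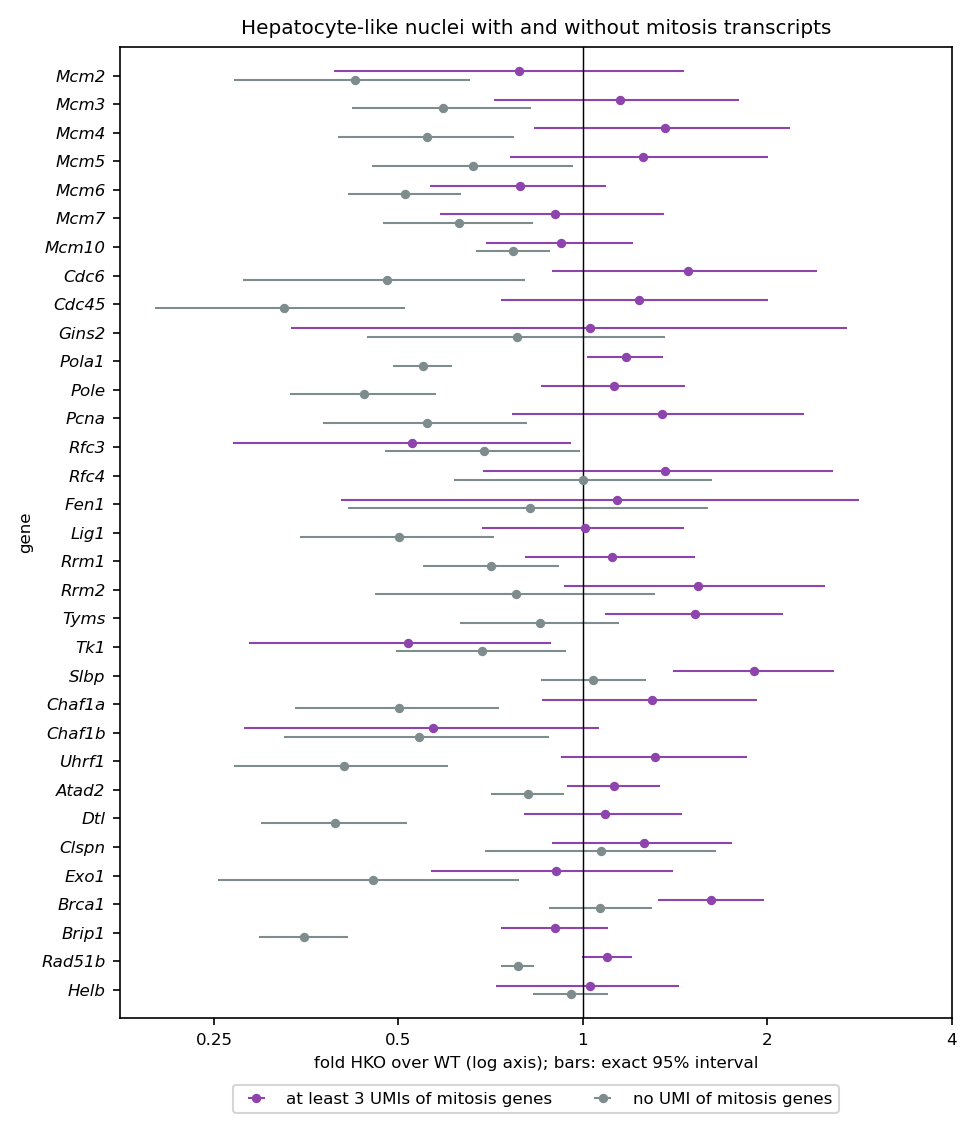
Fold of HKO over WT for each gene (log axis, exact 95% intervals) in hepatocyte-like nuclei with at least 3 UMIs of mitosis genes (purple) and with none (grey), each nucleus thinned to 2000 UMIs. Grey points lie mostly left of 1 (24 intervals below it), and purple points scatter on both sides of it (4 intervals above, 2 below).

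Within a library, nuclei with mitosis transcripts carried more of 31 of the 33 genes than nuclei without, in HKO and in WT alike, and none had less. Over all genes the interval lay above 1 for 12.7% and below it for 7.01% of 11287 in HKO, and for 16.6% and 8.22% of 10703 in WT. Exo1 was at 30.6 CPM with and 2.31 CPM without mitosis transcripts in HKO, and at 33.8 and 5.09 CPM in WT. Uhrf1 was at 55.6 and 4.28 CPM in HKO, and at 42.3 and 10.5 CPM in WT. Helb and Gins2 were the genes whose intervals held 1 in both libraries. Helb was at 53.3 CPM with and 45.3 CPM without mitosis transcripts in HKO, and at 51.9 and 47.3 CPM in WT, so it was nearly flat along this split, while Gins2 had only 6 HKO and 18 WT UMIs in the nuclei with mitosis transcripts. Apart from Helb, Mcm10 had the smallest fold, 1.85 (1.41 to 2.40) in HKO and 1.55 (1.32 to 1.81) in WT. In nuclei with at least 3 UMIs of the second replication list, which were 60.5% of HKO and 65.7% of WT nuclei, the 33 genes were at 994 CPM in HKO, against 1445 CPM in WT. In the other nuclei they were at 566 CPM in HKO, against 838 CPM in WT, so that marked over unmarked nuclei gave a fold of 1.76 in HKO and 1.72 in WT.

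Hepatocytes near the central vein and near the portal tract use different enzymes, so nuclei were ranked in each library by pericentral minus periportal marker genes and cut into 3 equal parts. Marker genes kept out of the score moved with it. The pericentral ones were at 3556 CPM in the pericentral and 1662 CPM in the periportal part of HKO, and at 4553 and 2241 CPM in WT. The periportal ones moved less, from 1835.5 CPM in the pericentral to 2902.5 CPM in the periportal part of HKO. In WT they moved from 1573.5 to 2040.1 CPM. Near a cut, within 0.1 SD of the score, lay 1140 HKO nuclei (16.6%) and 1527 WT nuclei (15.9%), so the parts are ranges, not types. The 33 genes summed to 830, 842 and 721 CPM in the pericentral, middle and periportal part of HKO, and to 1124, 1419 and 1202 CPM in those of WT. HKO was lower than WT in every part, and in HKO the intervals of the pericentral (813 to 848) and middle (825 to 859) parts overlapped. Parts of the same name need not hold the same zone, as each library was cut by itself. The pericentral score genes were at 2731, 761 and 329 CPM in the pericentral, middle and periportal part of HKO. In WT they were at 4420, 1974 and 1155 CPM.

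Gene by gene, 25 of the 33 had a pericentral over periportal interval above 1 in HKO and 1 below it, against 17.1% and 13.1% of 11306 genes. In WT, 4 lay above and 2 below, against 14.8% and 14.5% of 10804 genes. Mcm2 was at 8.32 CPM in the pericentral and 3.03 CPM in the periportal part of HKO, a fold of 2.74 (1.83 to 4.18), and at 12.5 and 9.60 CPM in WT, a fold of 1.301 (1.04 to 1.63). Cdc6 had a fold of 2.42 (1.56 to 3.83) in HKO and 1.09 (0.844 to 1.40) in WT, and Lig1 a fold of 2.21 (1.63 to 3.01) in HKO and 1.05 (0.868 to 1.27) in WT. For each of these 3 genes the HKO and WT intervals did not overlap. Rad51b ran the other way in both, at 198 CPM in the pericentral and 276 CPM in the periportal part of HKO, a fold of 0.716 (0.677 to 0.757), and at 263 and 371 CPM in WT, a fold of 0.710 (0.681 to 0.740). Without Rad51b and Helb the other 31 genes had a fold of 1.47 (1.42 to 1.53) in HKO and 1.04 (1.01 to 1.07) in WT.

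The zonal difference depended on the marker genes used. With parts cut on the marker genes kept out of the score, 7 genes lay above 1 and 2 below in HKO, against 12.8% and 12.5% of 11258 genes, and 0 above and 8 below in WT, against 13.6% and 14.3% of 10895 genes. The fold of the 31 genes was then 1.06 (1.02 to 1.10) in HKO and 0.913 (0.889 to 0.936) in WT, and that of all 33 turned to the periportal side in HKO, with a log2 ratio of -0.18 in place of 0.20. Each set of score genes was also used alone, a choice made after the data were seen. Between the low and the high part of the periportal genes the 31 genes were at 628 and 390 CPM in HKO, and at 874 and 757 CPM in WT. Between the low and the high part of the pericentral genes they were at 490 and 535 CPM in HKO, and at 896 and 760 CPM in WT. In HKO the replication genes therefore stood low where periportal transcripts were high, more than they stood high where pericentral transcripts were high. Mitosis genes summed to 409, 448 and 233 CPM in the pericentral, middle and periportal part of HKO, and to 540, 852 and 752 CPM in WT, and the part of cell cycle stage in the zonal values was not tested.

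**Figure D3:**
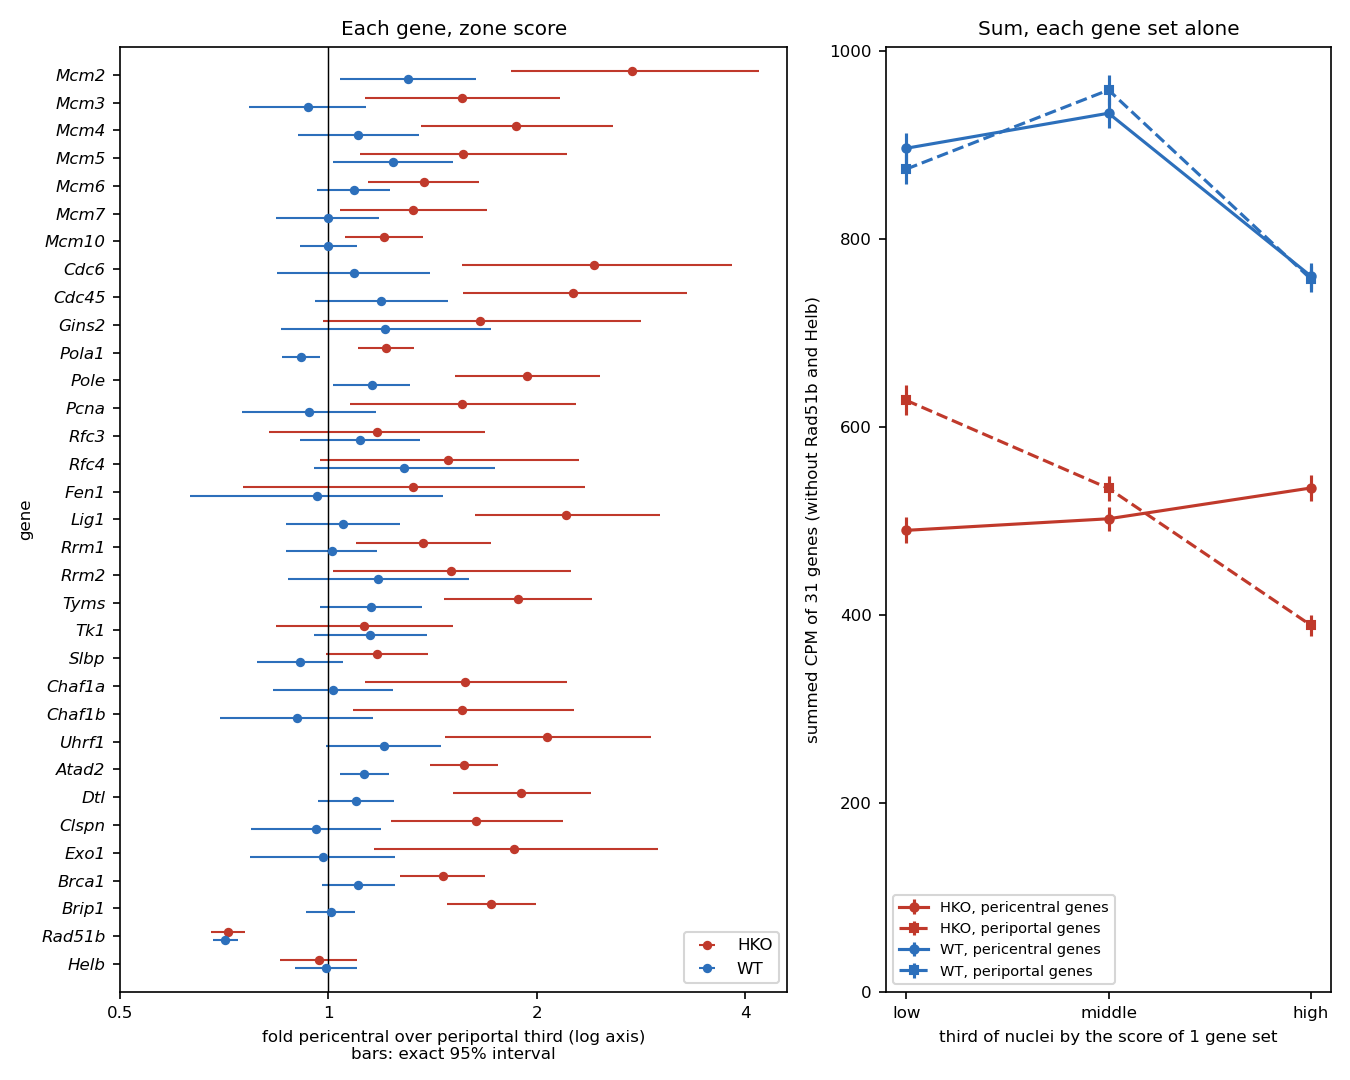
Left, fold of the pericentral over the periportal part for each gene (log axis, exact 95% intervals) in HKO (red) and WT (blue) hepatocyte-like nuclei. Right, summed CPM of 31 genes with Poisson intervals in 3 equal parts of nuclei ranked by pericentral genes alone (circles) or periportal genes alone (squares): the HKO sum is 390 CPM in the high periportal part, against 628 CPM in the low one.

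Counts of the other cell classes also gave lower sums in HKO. These counts include hepatocyte RNA, whose origin was not tested. In endothelial-like nuclei, for 1, hepatocyte markers were at 88.9% (HKO) and 100.1% (WT) of the hepatocyte-like level. The part of hepatocyte RNA in the folds of these classes was not tested. Most HKO and WT nuclei came from clusters 2 and 7 in the endothelial-like class, 4 and 8 in the macrophage-like, 6 and 11 in the stellate-like, and 12.17 and 17 in the T/NK-like class. In endothelial-like nuclei the 33 genes summed to 840 CPM in HKO, against 1242 CPM in WT, a fold of 0.676 (0.654 to 0.699). In macrophage-like nuclei their sum was 1202 CPM in HKO, against 1486 CPM in WT, a fold of 0.809 (0.785 to 0.834), and in stellate-like nuclei it was 987 CPM in HKO, against 1201 CPM in WT, a fold of 0.822 (0.786 to 0.860). T/NK-like nuclei, with 752 HKO and 527 WT UMIs, had 731 CPM in HKO, against 1139 CPM in WT, a fold of 0.642 (0.574 to 0.719). The intervals of the hepatocyte-like, T/NK-like and endothelial-like folds all lay below those of the macrophage-like and stellate-like ones. Without the deepest 10% of nuclei the log2 ratio was -0.16 in macrophage-like nuclei, in place of -0.31, and -0.15 in stellate-like nuclei, in place of -0.28, and thinned to 2000 UMIs, with shallower nuclei left out, it was -0.20 and -0.12. In endothelial-like nuclei it was -0.49 and -0.44 under these settings, in place of -0.57, and the cause was not tested. Median depths were 2227 UMIs in HKO and 3402 UMIs in WT macrophage-like nuclei, and 2294 UMIs in HKO and 3066 UMIs in WT stellate-like nuclei.

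**Figure D4:**
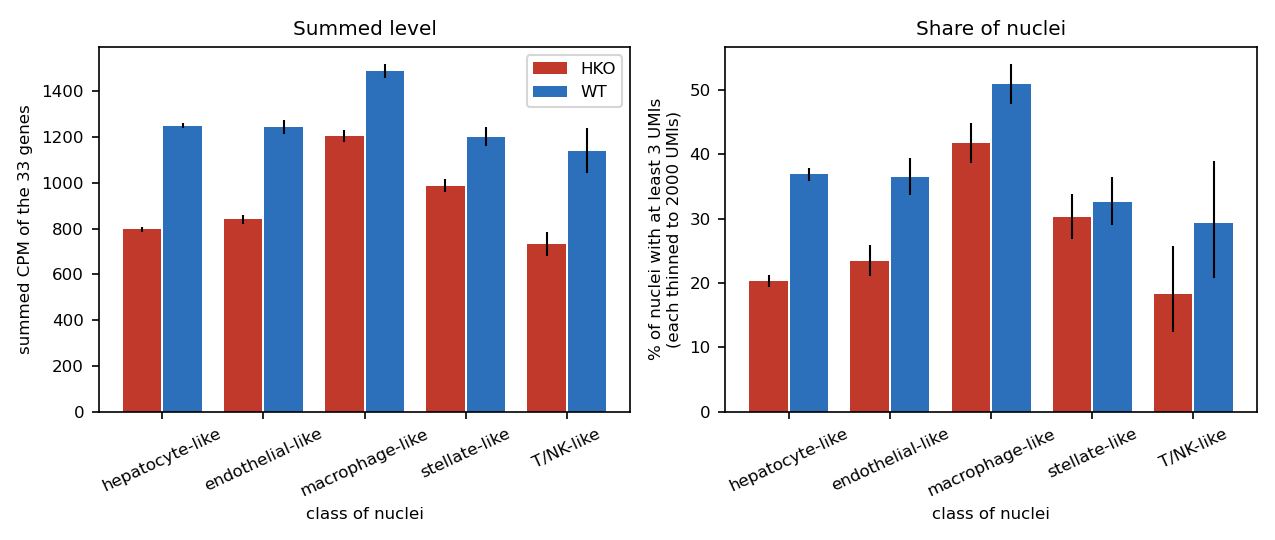
Left, summed CPM of the 33 genes by class with exact 95% Poisson intervals, and right, share of nuclei with at least 3 of their UMIs after thinning to 2000 UMIs, with exact binomial intervals; HKO bars (red) stand left of WT bars (blue). WT has the higher sum in every class. Its share is also higher at this depth, with intervals that overlap in stellate-like and T/NK-like nuclei, but thinned to 1000 UMIs macrophage-like shares were 20.1% in HKO, against 19.3% in WT.

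Macrophage-like nuclei held the highest summed level of the 5 classes in each library. Set against hepatocyte-like nuclei of the same library, the interval lay above 1 for 25 of the 33 genes in HKO and 14 of 33 in WT, against 26.3% of 11449 and 26.0% of 10928 genes, and below 1 for 1 gene in HKO (Helb) and none in WT, against 22.1% and 17.6%. Lig1 was at 25.9 CPM in macrophage-like and 9.23 CPM in hepatocyte-like nuclei of HKO, and at 26.0 and 17.9 CPM in WT. Tk1 was at 24.2 and 9.11 CPM in HKO, and at 31.1 and 16.6 CPM in WT. Stellate-like nuclei exceeded hepatocyte-like ones for 17 genes in HKO and 3 in WT, against 22.1% of 11559 and 19.8% of 11008 genes, and were lower for 2 and 2, against 23.1% and 21.9%. Endothelial-like nuclei were higher for 8 genes in HKO and 2 in WT, against 23.4% of 11641 and 17.9% of 10929 genes, and lower for 1 and 3, against 20.2% and 17.6%. In T/NK-like nuclei 4 genes in HKO and 0 in WT were higher, against 9.53% and 6.65%, and 2 and 2 were lower, against 6.8% and 5.13%. At least 3 UMIs of the list, in nuclei thinned to 2000 UMIs, were found in 41.7% of HKO and 50.9% of WT macrophage-like nuclei, in 30.2% and 32.6% of stellate-like, in 23.4% and 36.4% of endothelial-like, and in 18.3% and 29.2% of T/NK-like nuclei. Unthinned, these shares were 58.0% and 77.1%, 44.8% and 56.8%, 37.4% and 61.9%, and 36.2% and 60.6%. Thinning left out 753 HKO and 17 WT macrophage-like, 474 and 9 stellate-like, 1128 and 22 endothelial-like, and 148 and 3 T/NK-like nuclei. At 1000 UMIs, where no nucleus of these classes was left out, the macrophage-like shares were 20.1% (18.3 to 22.0) in HKO, against 19.3% (16.9 to 21.8) in WT, so the order there turned with overlapping intervals. They were 10.9% and 13.1% for stellate-like, 7.19% and 13.6% for endothelial-like, and 10.7% and 15.6% for T/NK-like nuclei.

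By class, the intervals of the HKO over WT fold lay below 1 for 24 of 33 genes in endothelial-like nuclei, against 17.0% of 11939 genes, for 16 in macrophage-like nuclei, against 18.3% of 11339, for 11 in stellate-like nuclei, against 14.1% of 12283, and for 9 in T/NK-like nuclei, against 7.02% of 12066. A single interval, that of Clspn in macrophage-like nuclei, lay above 1, while over all genes it did for 34% (endothelial-like), 30.4% (macrophage-like), 25.5% (stellate-like) and 10.6% (T/NK-like). These shares are over genes with at least as many UMIs as the lowest of the 33. In T/NK-like nuclei that was 4 UMIs over both libraries. So few UMIs seldom give an interval that leaves out 1, so the T/NK-like share is not a like comparison. Where the mean reached 10 CPM, 4 of 23 genes lay at -1 or below in endothelial-like nuclei, against 4.49% of 8902 genes, 1 of 29 in macrophage-like nuclei, against 3.78% of 9077, and 0 of 28 in stellate-like nuclei, against 4.46% of 9155. In T/NK-like nuclei it was 8 of 23, against 6.91% of 8799 genes, where 10 of the 33 genes had 3 UMIs or fewer in a library. None of the 33 lay at 1 or above in any of these classes, against 2.62%, 2.6%, 2.73% and 7.63% of genes. Median log2 ratios at that mean were -0.49 (endothelial-like), -0.34 (macrophage-like) and -0.31 (stellate-like), beside 0.16, 0.11 and 0.14 over all genes.

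Taking genes whose mean reached 20 CPM in a class, Brip1 was among the 3 lowest in each of the 4 classes and Pole in 3 of them. In endothelial-like nuclei Pole was at 14.0 CPM in HKO, against 36.7 CPM in WT, a fold of 0.381 (0.302 to 0.481). Brip1 was at 32.6 CPM in HKO, against 84.0 CPM in WT, a fold of 0.387 (0.333 to 0.451), and Dtl at 18.0 CPM in HKO, against 34.8 CPM in WT. The highest there were Slbp, at 32.5 CPM in HKO, against 27.3 CPM in WT, Helb and Brca1, with folds of 1.19, 0.941 and 0.881 whose intervals all held 1. In macrophage-like nuclei Brip1 was at 57.9 CPM in HKO, against 95.5 CPM in WT, a fold of 0.606 (0.532 to 0.690), Uhrf1 had a fold of 0.609 and Pole of 0.618. Clspn was at 27.1 CPM in HKO (185 UMIs), against 18.9 CPM in WT (115 UMIs), a fold of 1.43 (1.13 to 1.82), Brca1 at 49.9 CPM in HKO, against 43.6 CPM in WT, and Atad2 at 121 CPM in both. Clspn thus lay above WT in macrophage-like nuclei and below it in hepatocyte-like nuclei, where its fold was 0.725 (0.634 to 0.829). In hepatocyte-like nuclei split by mitosis transcripts, its fold was 1.257 (0.889 to 1.755) with at least 3 mitosis UMIs and 1.069 (0.693 to 1.65) with none. Both intervals held 1. That of nuclei with none also held 0.725, so whether Clspn was lower in HKO there is not settled.

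In stellate-like nuclei Pole was at 16.3 CPM in HKO, against 32.6 CPM in WT, a fold of 0.501 (0.363 to 0.689), Brip1 at 48.1 CPM in HKO, against 77.2 CPM in WT, and Mcm6 at 28.2 CPM in HKO, against 40.0 CPM in WT. Clspn, Atad2 and Slbp had folds of 1.19, 1.15 and 1.04 whose intervals held 1. T/NK-like counts were small. Brip1 had 32 UMIs in HKO and 37 in WT, a fold of 0.389 (0.235 to 0.642), Mcm7 had 11 in HKO and 14 in WT, a fold of 0.354 (0.145 to 0.839), and Pola1 had a fold of 0.613 (0.431 to 0.876). Brca1, Mcm10 and Rrm1 had folds of 1.43, 1.06 and 0.941 there, with intervals that held 1. Folds of Top2a and Mki67 were 0.436 and 0.394 among endothelial-like, 0.746 and 0.812 among macrophage-like and 0.690 and 0.751 among stellate-like nuclei, and in T/NK-like nuclei 0.494 (0.316 to 0.774) and 2.31 (1.07 to 5.70).

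**Figure D5:**
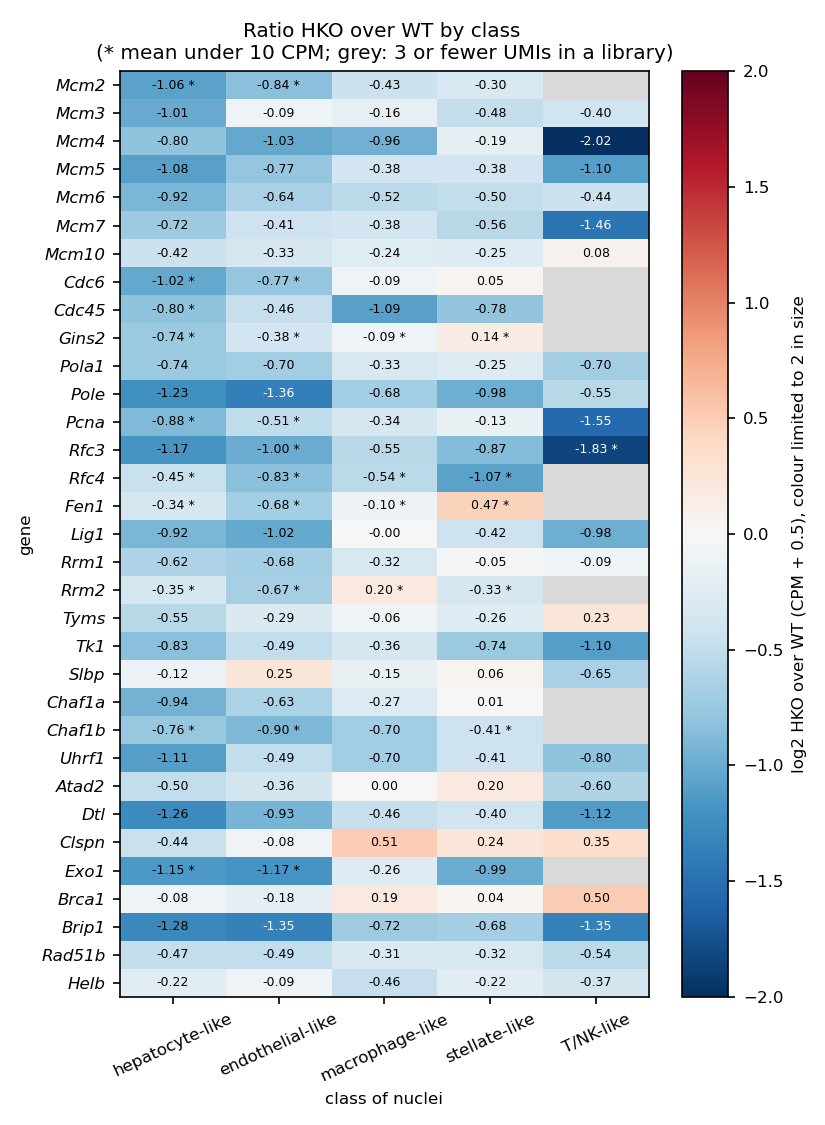
Log2 ratio of HKO over WT for each gene (rows) in each class (columns), after adding 0.5 CPM; blue is lower and red higher in HKO, an asterisk marks a mean under 10 CPM and grey a gene with 3 or fewer UMIs in a library. Brip1 runs from -1.35 in endothelial-like to -0.68 in stellate-like nuclei, and Clspn is at 0.51 in macrophage-like and -0.44 in hepatocyte-like nuclei.

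The split by mitosis transcripts was also made in 3 other classes. With at least 3 mitosis UMIs the 33 genes summed to 2272 CPM in HKO, against 1984 CPM in WT macrophage-like nuclei, to 2096 and 1902 CPM in stellate-like and to 1837 and 1952 CPM in endothelial-like nuclei. In nuclei with neither mitosis marks nor at least 3 UMIs of the second replication list the sums were 704 CPM in HKO, against 1102 CPM in WT macrophage-like nuclei, 584 and 792 CPM in stellate-like and 674 and 897 CPM in endothelial-like nuclei. In each of these classes the unmarked nuclei of HKO were lower than those of WT, with intervals that do not overlap. Nuclei led by haemoglobin genes held 732 CPM in HKO, against 939 CPM in WT, below the hepatocyte-like level of their own library (folds of 0.919 and 0.752); the WT group was the one rich in hepatocyte markers.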

How the data were processed

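The deposited matrices hold raw UMI counts per gene and barcode, not normalized; the authors used Cell Ranger 5.0.0 per the file headers, and STAR, GRCm38 and Seurat 3.2.0 stand in the submitters' processing notes without saying for which step. Whether intronic reads were counted, how nuclei were isolated and whether doublets were removed are not given in the sources used here. Groups come from the sample titles. A barcode was kept with 500 or more genes detected and a mitochondrial share below 10%, which left 14902 of 14912 for HKO and 14515 of 14701 for WT, and no doublet caller was run; leaving out the deepest 10% of each class was an alternative. Both libraries were clustered together in scanpy 1.11.5 (2000 variable genes, 30 components, 15 neighbours, leidenalg 0.10.2, resolution 0.5), leaving out 143 replication and mitosis genes of the lists. Clusters that could not be named were split by the resolution of 1, and pieces under 50 nuclei stayed unnamed. Pooled, these pieces were 60 nuclei, 53 of HKO and 7 of WT, with Uhrf1 and Exo1 of the list among their highest genes. They were left out of every class, and the effect of this on the HKO sums was not tested.

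Counts were summed per class and library, divided by the class total and given as CPM. Log2 ratios add 0.5 CPM, and folds are ratios of CPM. Poisson, conditional and Clopper-Pearson intervals are exact at 95% and cover counting error only. Shares and splits by marks used nuclei thinned to 2000 UMIs, which left out 360 HKO and 96 WT hepatocyte-like nuclei. The calculations were tested on simulated counts. TMM factors came from edgeR 4.0.16 under R 4.3.3; other steps ran in Python 3.11.15 with pandas 2.3.3, scipy 1.17.1, numpy 2.4.6 and, for plots, matplotlib 3.10.9. Coordinates are from GENCODE (GRCm38). Named were all 33 genes in hepatocyte-like nuclei, in other classes the 3 highest and 3 lowest ratios at a mean of at least 20 CPM, of the second replication list the 4 highest and 4 lowest at 10 CPM, Top2a, Mki67 and genes of opposite direction in 2 classes; other genes named in the splits and zones were chosen after their values were seen. The members and lists were chosen with earlier results of these data known. Alternatives covered scaling, resolution, thinning, depth, floors, marks and zone genes.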

Additional observations from a re-analysis of the deposited data

Results flagged for a closer look

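Clspn, a mediator of the replication checkpoint, was the gene of the list with opposite directions in 2 cell classes whose intervals both left out 1. Its fold of HKO over WT was 1.43 (1.13 to 1.82) in macrophage-like nuclei and 0.725 (0.634 to 0.829) in hepatocyte-like nuclei. In hepatocyte-like nuclei with at least 3 mitosis UMIs the fold was 1.257 and in those with none 1.069, with intervals that held 1. There was 1 library per group, and the difference between the classes was not tested.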

How the results depend on the processing

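Of 69 alternatives, 29 left the value within its interval (or a count within 1.5 times), 38 moved it and 2 reversed it. Log2 ratios of the summed genes, HKO over WT, stayed below 0 in every class under all of them. For hepatocyte-like nuclei, -0.65 became -0.81 with median-of-ratios and -0.79 with TMM scaling, -0.58 thinned to 2000 UMIs, -0.62 without the deepest 10%, -0.76 without Rad51b and Helb and -0.63 with haemoglobin-led nuclei kept. Under the same settings but the last, endothelial-like -0.57 became -0.73, -0.69, -0.44, -0.49 and -0.62. Under the first 4, macrophage-like -0.31 became -0.42, -0.41, -0.20 and -0.16, and stellate-like -0.28 became -0.43, -0.38, -0.12 and -0.15. The count of 7 genes at -1 or below became 3 when thinned and 3 at a mean of 25 CPM, and the share over all genes was not computed there. The hepatocyte-like shares, 20.3% in HKO and 36.9% in WT, became 38.3% and 57.2% at 2 UMIs, 7.72% and 16.0% at 5 UMIs, 7.68% and 15.1% thinned to 1000 UMIs, and 11.5% and 23.4% without Rad51b and Helb. Macrophage-like shares, 41.7% in HKO and 50.9% in WT, became 20.1% and 19.3% thinned to 1000 UMIs. The pericentral over periportal log2 ratio of HKO, 0.20, reversed to -0.18 with the other zone genes and was 0.56 without Rad51b and Helb. That of WT, -0.10, became -0.15 with 4 equal parts in place of 3 and -0.24 with the other zone genes, and reversed to 0.054 without Rad51b and Helb. Marks of the second replication list gave 0.81 in HKO and 0.79 in WT, with 0.67 and 0.72 at 2 UMIs and 1.24 and 1.08 at 5. In nuclei with mitosis marks, where scaling was not varied, 0.16 became 0.23 at 5 UMIs and 0.037 for the cycling clusters. The cause of these changes was not tested. Settings on haemoglobin-led nuclei, on Rad51b and Helb and on mitosis marks were chosen after seeing the data. No paired analysis was possible because each group had 1 library. T/NK-like nuclei gave the fewest UMIs of these genes, 752 in HKO and 527 in WT, and 9 of 33 intervals there left out 1.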
